A study of Mus musculus with 8 samples.

Results

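Compartment scores of 2 untreated mouse embryonic stem cell (mESC) lines, named Suv39h WT and Setdb1 WT, were compared as the score in Suv39h WT minus the score in Setdb1 WT in each 100-kb bin of the 19 autosomes. A bin was a member if both libraries gave it a score other than 0, which held for 23988 bins of the 24005 scored in any of the 8 Hi-C libraries of the series. Suv39h WT was the ADF1-26 WT clone without any treatment. Setdb1 WT was the #33-6 Setdb1 conditional KO line, which carries the conditional alleles but was given no 4-hydroxytamoxifen (4-OHT), so that it served as the WT state of its line. Both lines grew in the same serum, KSR and LIF medium on gelatin. Hi-C reads out how often pairs of loci lie close together in fixed nuclei. Each group has 1 deposited score track, called a library below. The study made its Hi-C in biological repeats, and whether a track pools them is not stated. Each side was thus 1 library, so the pair alone has no replicate check and no p-value. The study's other 6 libraries came from the same lines after genetic or chemical loss of H3K9 methyltransferases: Setdb1 WT + UNC and Suv39h WT + UNC (UNC0642, an inhibitor of G9a and GLP, at 2 µM for 3 days), Setdb1 KO (4-OHT at 800 nM for 5 days), Setdb1 KO + UNC (4-OHT at 800 nM for 2 days, then UNC0642 at 2 µM for 3 days), Suv39h DKO, a separate clone lacking SUV39H1 and SUV39H2, and Suv39h DKO + UNC (the same UNC0642 dose and time). They are used below as further libraries of each line. The strain of each line is not given in the sources used here, and line, clone and culture history cannot be told apart.

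Chromosomes fold into an A compartment, gene-rich and transcriptionally active, and a B compartment, gene-poor, often attached to the nuclear lamina and marked by H3K9 methylation. The first eigenvector of the intrachromosomal contact map separates them: a positive score marks A and a negative score marks B. Compartments are a general feature of a cell type, and mESCs are the reference state against which changes during differentiation or after loss of chromatin regulators are usually measured. The score has no unit and averages 0 on every chromosome, so the values show a redistribution along a chromosome and never a general rise or fall. The 6 genes used as pluripotency markers lay in A in both lines. The scores were 0.0638 in Setdb1 WT and 0.0658 in Suv39h WT at Pou5f1, 0.0384 and 0.0327 at Nanog, 0.0427 and 0.0448 at Sox2, 0.0412 and 0.0400 at Esrrb, 0.01001 and 0.00709 at Klf4, and 0.0116 and 0.0110 at Zfp42. Of 4 fibroblast marker genes, Col1a1 (0.0325 and 0.0401), Col1a2 (0.00324 and 0.00118) and Thy1 (0.0552 and 0.0514) were also in A, and Col3a1 (-0.0133 and -0.00312) was in B. Over the full lists, all 24 core pluripotency genes were A in both lines, and of 15 fibroblast genes 9 were A and 6 were B in both. A compartment score is not expression, so cell identity was not tested.

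Start regions of 4 genes that lie in differing bins are shown first, because the fragments whose contacts the assay counts end at DpnII sites, GATC. Each is 300 bases of the mouse genome GRCm38.p6 from RefSeq, 250 bases before to 50 after the gene start, read along the gene, with GATC in capitals. Dclre1a (chr19:56548173-56548472, minus strand), which repairs DNA interstrand crosslinks, and Tdrd1 (chr19:56825959-56826258, plus strand), a tudor-domain protein of the germline piRNA pathway, lay in bins higher in Suv39h WT. H2-T3 (chr17:36190102-36190401, minus strand), a nonclassical MHC class I gene, and Zfp808 (chr13:62129640-62129939, plus strand), a zinc finger gene, lay in bins lower in Suv39h WT.
Dclre1a: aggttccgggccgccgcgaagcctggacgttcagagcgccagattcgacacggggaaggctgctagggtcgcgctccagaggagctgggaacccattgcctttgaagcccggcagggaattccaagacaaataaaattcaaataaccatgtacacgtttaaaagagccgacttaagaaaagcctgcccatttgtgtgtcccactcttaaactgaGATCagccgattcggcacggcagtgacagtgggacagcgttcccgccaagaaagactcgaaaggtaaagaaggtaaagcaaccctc
Tdrd1: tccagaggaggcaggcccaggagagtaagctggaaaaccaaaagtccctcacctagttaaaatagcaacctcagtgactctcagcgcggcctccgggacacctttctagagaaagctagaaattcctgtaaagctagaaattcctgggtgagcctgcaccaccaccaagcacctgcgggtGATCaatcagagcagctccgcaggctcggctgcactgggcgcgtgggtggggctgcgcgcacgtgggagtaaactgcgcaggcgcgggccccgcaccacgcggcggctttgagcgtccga
H2-T3: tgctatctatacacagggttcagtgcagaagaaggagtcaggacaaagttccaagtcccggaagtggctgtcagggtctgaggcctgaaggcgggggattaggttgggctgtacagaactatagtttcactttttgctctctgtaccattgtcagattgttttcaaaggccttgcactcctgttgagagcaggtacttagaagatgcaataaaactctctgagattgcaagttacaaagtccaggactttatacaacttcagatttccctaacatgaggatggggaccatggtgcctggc
Zfp808: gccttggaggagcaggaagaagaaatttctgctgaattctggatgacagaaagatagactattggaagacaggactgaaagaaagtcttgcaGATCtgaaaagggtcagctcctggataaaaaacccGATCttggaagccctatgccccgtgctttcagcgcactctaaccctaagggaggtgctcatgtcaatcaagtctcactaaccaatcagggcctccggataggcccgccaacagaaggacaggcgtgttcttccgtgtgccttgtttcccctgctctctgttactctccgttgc
The Dclre1a and Tdrd1 windows hold 19 and 20 CG dinucleotides and 1 GATC each, H2-T3 holds 2 CG and 0 GATC, and Zfp808 holds 8 CG and 2 GATC. GATC reads the same on both strands and occurs in 48.0% of the 32851 promoter windows of this length, which have a median of 7 CG. Per bin, GATC density was 2.44 per kb in bins higher, 2.51 in bins lower and 2.47 in all bins.

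The lines shared nearly all of their compartment structure and differed in patches. Across the 23988 bins the scores correlated at r = 0.969 (Spearman rho 0.967), and 22662 bins (94.5%, 95% Wilson interval 94.2 to 94.8%) had the same sign. Neighbouring bins are not independent, so this interval is too narrow. B in Setdb1 WT and A in Suv39h WT were 705 bins (2.94%), and the reverse were 621 bins (2.59%). The differences had an SD of 0.00679 and a median size of 0.00395, and ran from -0.0622 to 0.0393. A difference of at least 0.01, used below as the step, was reached by 1361 bins that were higher in Suv39h WT (5.67%) and by 1514 that were lower (6.31%). At 0.02 there were 114 higher and 173 lower. Sign and step selected largely different bins: 41.0% of the switching bins passed the step, and 81.1% of the bins past the step kept their sign.

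The pair differed by more than most libraries of the same line did. The 12 pairs of libraries from the same line differ in genotype or UNC0642, and Suv39h WT and DKO libraries also in clone. In these pairs between 1.69% and 12.9% of bins passed the step (median 6.78%). The SD of the difference ran from 0.00395 to 0.00707. Suv39h WT and Setdb1 WT differed past the step in 11.95% of the 23972 bins scored in all 8 libraries. The remaining 15 pairs of libraries from different lines gave 7.28% to 16.7%, with a median of 13.01%. The ranges overlapped through 1 library, Setdb1 WT + UNC, without which pairs from the same line gave at most 9.80% and pairs from different lines at least 10.4%. Setdb1 WT + UNC stood apart from its line: it differed from Setdb1 WT past the step in 8.13% of bins, from Setdb1 KO in 10.4% and from Setdb1 KO + UNC in 12.9%. Against the Suv39h libraries it differed in 9.75% (WT), 7.28% (WT + UNC), 8.76% (DKO) and 7.58% (DKO + UNC), so that Setdb1 WT lay between them in distance. Setdb1 WT, by contrast, differed from Setdb1 KO in 2.28% and from Setdb1 KO + UNC in 2.64% of bins. Counts of line calls over all bins, over autosomes and over the larger gene lists are therefore also given without Setdb1 WT + UNC, whereas the adjusted p of a single bin is from all 8 libraries unless stated.

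The direction of the WT difference returned in libraries not used to find it. The bins past the step were looked up in 3 pairs that share no library with Suv39h WT and Setdb1 WT. Of the 1361 bins higher in Suv39h WT, 81.5% had the same sign in Suv39h DKO minus Setdb1 KO, 76.7% in the same pair given UNC0642, and 71.7% in Suv39h WT + UNC minus Setdb1 WT + UNC. Over all bins 51.3%, 50.8% and 49.3% had that sign. Of the 1504 bins that were lower and scored in all 8 libraries, 87.2%, 85.6% and 67.8% kept the sign in the same order, against 48.7%, 49.2% and 50.7% of all bins. The differences in the other pairs were smaller: the bins higher averaged 0.0139 in the WT pair and 0.00729, 0.00658 and 0.00371 in the other 3, and the bins lower averaged -0.0146 in the WT pair and -0.0105, -0.00993 and -0.00348. All 3 pairs had the same sign as the WT pair in 667 bins higher (49.0%, against 18.96% of all bins) and 784 bins lower (52.1%, against 18.3%). The bins were picked for a large difference in the WT pair, and such a choice alone can leave smaller differences in other pairs. Across all bins the WT difference correlated with the other 3 at r = 0.528, 0.469 and 0.307, as a description over 23972 bins that share chromosomes and base composition.

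A limma fit of the 8 libraries, 4 of each line with UNC0642 as a covariate, tested line in each bin. It called 553 bins higher (2.31% of those tested) and 557 lower (2.32%) in the Suv39h lines at a Benjamini-Hochberg adjusted p of 0.05. These p-values measure the spread between libraries and not the spread between lines. The WT and DKO libraries of the Suv39h side come from separate clones. The fit treats WT and knockout libraries of a line as alike. Of the 1361 bins higher by the step 323 were called higher and 0 lower, and of the 1504 lower 399 were called lower and 0 higher, but the fit includes the WT pair itself. With only the other 6 libraries it called 15 bins higher and 52 lower, of which 13 and 47 lay among the bins past the step in the same direction. Without Setdb1 WT + UNC it called 1578 bins higher and 1771 lower. Leaving out any other single library gave fewer calls than all 8, namely 68 to 274 higher and 109 to 340 lower. All 4 Suv39h libraries lay above all 4 Setdb1 libraries in 1574 bins (6.57%) and below them in 1557 (6.50%). Without Setdb1 WT + UNC these were 3278 and 3205.

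Bins of intermediate score differed most often. Classes were set by the mean of the other 6 libraries, so that the compared scores did not choose them. The step was passed by 7.85% of the bins below -0.03, 8.57% from -0.03 to -0.015, 14.4% from -0.015 to 0, 16.7% from 0 to 0.015, 15.8% from 0.015 to 0.03, and 10.5% at 0.03 and above. The lowest class, deep B, had 65 bins higher and 168 lower in Suv39h WT. The next class had 294 higher and 212 lower, and the class from -0.015 to 0 had 335 and 280. In A, lower bins outnumbered higher ones in each class: 299 against 244, 263 against 244, and 282 against 179. Switches of sign were almost restricted by construction to scores near 0, with 615 and 706 in the classes next to 0 and 5 in all the others. Of the 1326 switching bins, 56.7% touched a border between A and B as drawn by the other 6 libraries, compared with 12.9% of all bins. Bins past the step touched a border in 16.3% (higher) and 20.5% (lower).

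**Figure D1:**
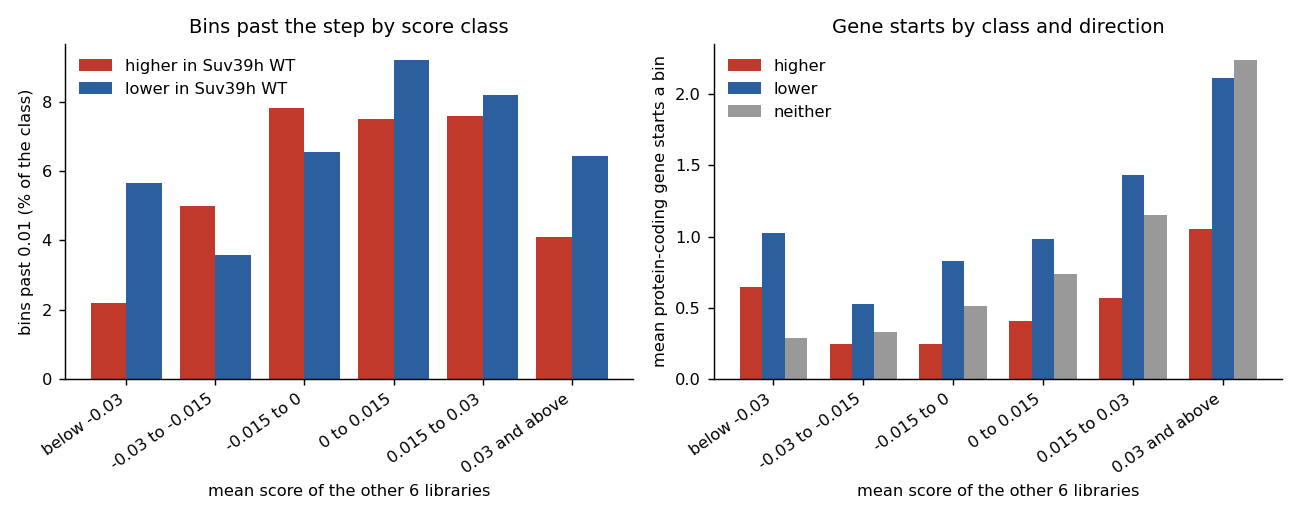
Left, share of bins (%) past 0.01 in each of 6 score classes, set by the mean score of the other 6 libraries; right, mean number of protein-coding gene starts a bin in the same classes for bins higher, lower or neither. The share peaks at 7.83% higher in the class from -0.015 to 0 and at 9.22% lower in the class from 0 to 0.015, and lower bins hold more gene starts than higher bins in all 6 classes.

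Bins higher in Suv39h WT held fewer genes than bins lower, at nearly the same base composition. A bin higher in Suv39h WT held on average 0.456 protein-coding gene starts, a bin lower held 1.18, and the average over all bins was 0.864. No gene started in 72.5% of the bins higher, 42.6% of the bins lower and 58.1% of all bins. Median GC content was 42.0%, 41.9% and 41.4%. Lower bins held more gene starts than higher bins in each score class, but their place beside the bins that did not pass the step varied. At 0.03 and above, higher bins had 1.05 gene starts, lower bins 2.12 and the others 2.24. From -0.03 to -0.015 they had 0.241, 0.524 and 0.329. Below -0.03 both were above the others, with 0.646 and 1.02 against 0.290. Over genes, 621 of the 20738 with a scored bin at their start (2.99%) lay in bins higher, and 1795 (8.66%) in bins lower. The line fit called the bins of 228 genes higher and 648 lower (1.10% and 3.12%), and of 679 and 2069 without Setdb1 WT + UNC. The correlation of the difference with gene starts was weak, r = -0.137 across bins, and was below 0 on each of the 19 autosomes (-0.266 to -0.0437). Bins lower held more gene starts than bins higher in all 16 pairs of libraries from different lines, which share libraries with each other. The r was -0.0542 to -0.0248 in the 4 of these pairs that hold Setdb1 WT + UNC, and -0.137 to -0.0950 in the other 12. Among the 12 pairs from the same line, r ran from -0.108 to 0.103, so that the ranges overlapped, but in the 9 without Setdb1 WT + UNC it ran from -0.0311 to 0.0524, which does not overlap the -0.137 to -0.0950 of pairs from different lines without it. The lowest was in Setdb1 WT + UNC minus Setdb1 WT, where bins higher held 0.486 gene starts and bins lower 1.07.

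Chromosomes 13 and 14 had the largest shares of bins past the step. They hold 9.95% of the bins but 21.5% of those past the step (618 bins), and 23.2% of the bins called for line (21.4% without Setdb1 WT + UNC). The share of bins called was 10.3% and 11.3% on these chromosomes and 11.8% on chromosome 19, or 36.0%, 24.4% and 24.2% without that library. On chromosome 13, 159 bins were higher and 168 lower (27.9% in all), and the scores correlated at 0.944. On chromosome 14, 124 were higher and 167 lower (24.0%), with r = 0.948. Chromosome 2 had the smallest share, with 22 and 30 bins (2.93%) and r = 0.979, although r was higher on chromosome 8 (0.983). Chromosome 1, at r = 0.945, lay between chromosomes 13 and 14. The scores on short chromosomes are larger, since their squares sum to a similar total (0.855 to 0.996) on each chromosome, so a fixed step takes more bins there. With the step scaled to the SD of each chromosome, a choice made after the data were seen, chromosome 13 kept 25.9% and chromosome 14 22.8%, chromosome 19 dropped from 19.7% to 7.72%, and chromosome 1 rose from 12.7% to 19.5%. Chromosome 8 was then the lowest at 5.38%, and chromosome 2 stood at 7.60%. The SD of the difference was 33.5% of the SD of the scores on chromosome 13, 32.9% on chromosome 1, 32.5% on chromosome 14 and 18.6% on chromosome 8. The line means of the other 6 libraries also correlated least on chromosome 13 (r = 0.957) and chromosome 14 (0.968), whereas chromosome 1 reached 0.982. Part of the difference on chromosomes 1 and 14 was a slope along the chromosome. The correlation of the difference with position was -0.397 on chromosome 1 and 0.402 on chromosome 14, and the first 10 Mb averaged 0.0134 and -0.0117. In the 3 pairs without a shared library it ran from 0.239 to 0.319 on chromosome 14, but from -0.367 to 0.265 on chromosome 1.

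**Figure D2:**
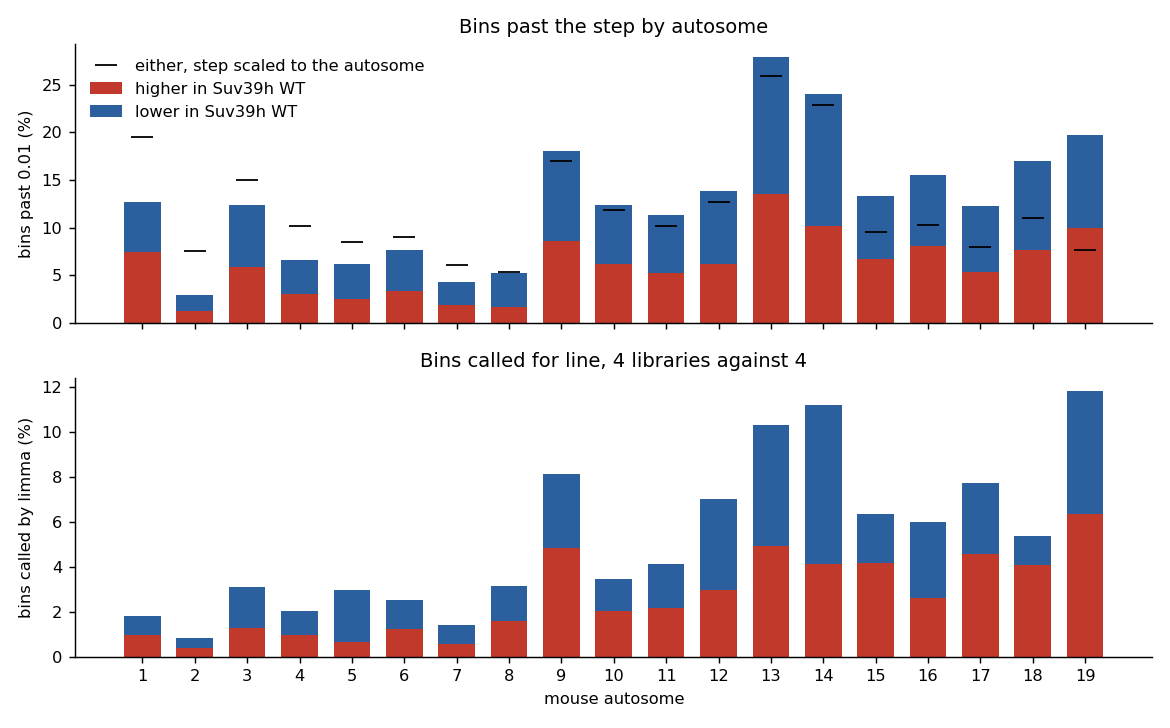
Top, share of bins (%) past 0.01 on each autosome, higher (red) stacked with lower (blue) in Suv39h WT, and, as a dash, the share with the step scaled to the SD of the autosome; bottom, share of bins (%) called for line by limma with 4 libraries against 4. Chromosomes 13 (27.9%) and 14 (24.0%) stand highest in the top panel, and chromosome 2 (2.93%) lowest.

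Differing bins lay side by side. The difference in a bin correlated at 0.476 with that in the next bin, and 636 of the bins higher (46.7%) and 772 of the bins lower (51.0%) fell in runs of at least 2 adjacent bins, 222 runs higher and 267 lower. Of the runs of at least 5 bins, 22 were higher and 28 lower. The runs were chosen on the WT pair, which is also part of the line fit, so the calls and adjusted p-values of single runs below are a description, and the other 6 libraries are the independent values. Fitted alone, these 6 called 3 bins in chr12:23500001-24300000, 3 in chr14:3300001-4200000, 2 in chr19:55800001-56700000, 1 in chr13:61600001-62700000 and 0 in the other 6 of the 10 longest runs. Without Setdb1 WT + UNC the line fit, with the WT pair, called 2 to 14 bins in each of the 10.

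The longest run did not return in all libraries of its line. It covered the first 3500 kb of scored chromosome 1 (chr1:3000001-6500000, 35 bins), with the phospholipid scramblase family gene Xkr4, the photoreceptor gene Rp1, the endoderm factor gene Sox17, and Alkal1 and St18 at its distal end. Its mean score was 0.0120 (WT), 0.00876 (WT + UNC), 0.0117 (KO) and 0.0127 (KO + UNC) in the Setdb1 line, against 0.0379 (WT), 0.0239 (WT + UNC), 0.0244 (DKO) and 0.00752 (DKO + UNC) on the Suv39h side. The last of these lay below every Setdb1 library, and 2 of the 35 bins were called (lowest limma adjusted p = 0.0469). The bin with the largest rise of all, chr1:4000001-4100000 inside Rp1, went from 0.00558 to 0.0448, and was not called (limma adjusted p = 0.0677). The second run, on chromosome 9 (chr9:65800001-66800000, 10 bins, with Zfp609, Pclaf, Car12 and Aph1b), differed by 0.0119 in the WT pair and by 0.000930 between the means of the other 3 libraries of each line. None of its bins was called by limma (lowest adjusted p 0.164), and 1 of 10 had an unadjusted p under 0.05.

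A run on chromosome 19 separated the lines in all libraries. In chr19:55800001-56700000 (9 bins) the 4 Setdb1 libraries scored 0.00932 (WT), 0.0151 (WT + UNC), 0.0134 (KO) and 0.0112 (KO + UNC). The 4 Suv39h libraries scored 0.0289 (WT), 0.0280 (WT + UNC), 0.0274 (DKO) and 0.0318 (DKO + UNC). The difference was 0.0196 in the WT pair and 0.0159 in the others, and 5 of the 9 bins were called. Its genes include Tcf7l2, a transcriptional effector of Wnt signalling, Habp2, a secreted protease, the muscle gene Nrap, Dclre1a and Nhlrc2. The Dclre1a and Nhlrc2 starts share 1 bin, which went from 0.0269 to 0.0502 (limma adjusted p = 0.000687). A separate run further along, chr19:56800001-57300000, holds Tdrd1, at 0.0229 in Setdb1 WT and 0.0457 in Suv39h WT (limma adjusted p = 0.00520). Across the libraries Tdrd1 scored 0.0229 to 0.0370 in the Setdb1 line and 0.0447 to 0.0537 in the Suv39h lines.

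On chromosome 9, the dopamine receptor gene Drd2 and the neural adhesion gene Ncam1 lay in a run that was B in Setdb1 WT and A in Suv39h WT. Over chr9:49300001-50200000 (9 bins) the Setdb1 means were -0.00817 (WT), 0.00409 (WT + UNC), -0.0142 (KO) and -0.0118 (KO + UNC). They were 0.00749, 0.00620, 0.00962 and 0.00779 in Suv39h WT, WT + UNC, DKO and DKO + UNC. By these means all Suv39h libraries lay above all Setdb1 libraries, and Setdb1 WT + UNC was the 1 Setdb1 library in A. At Ncam1 the score went from -0.00856 to 0.00692, and 6 of the 9 bins were called (Ncam1 bin, limma adjusted p = 0.0136). The Drd2 bin went from -0.00431 to 0.0111 and was not called (limma adjusted p = 0.123). There Setdb1 WT + UNC, at 0.0167, lay above the Suv39h libraries, 0.00900 to 0.0144. The fifth run higher, chr13:58600001-59400000 with the nucleoside transporter gene Slc28a3 and the neurotrophin receptor gene Ntrk2, was in A throughout, at 0.0268 to 0.0379 in the Setdb1 line and 0.0376 to 0.0436 in the Suv39h lines, which overlap.

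Among the runs lower in Suv39h WT was a zinc finger cluster on chromosome 13 (chr13:61600001-62700000, 11 bins, with Zfp808, Zfp935 and Zfp934). Its mean was A in Setdb1 WT and B in Suv39h WT. Its Setdb1 means were 0.0189 (WT), -0.00144 (WT + UNC), 0.0217 (KO) and 0.0246 (KO + UNC). In the 4 Suv39h libraries it was -0.00564, -0.00664, -0.00654 and -0.00493, a range narrower than the gap to the nearest Setdb1 library. Here 5 of the 11 bins were called, with a lowest limma adjusted p of 0.000760. Zfp808, whose start region is printed above, went from 0.0178 to 0.00608 (limma adjusted p = 0.0653, or 0.00165 without Setdb1 WT + UNC). This bin and that of Zfp935 and Zfp934, 0.0227 to 0.00889, stayed in A in both WT libraries. The largest fall of all was in chr12:18400001-18500000, with no protein-coding gene start, from -0.00677 to -0.0690. There the Setdb1 libraries ran from -0.01503 to 0.00321 and the Suv39h libraries from -0.0732 to -0.0521 (limma adjusted p = 0.000155).

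Of the other falling runs, 3 deepened B by their mean. In chr12:23500001-24300000 (8 bins, with Gm10330) the score was -0.0341 in Setdb1 WT, -0.0420 to -0.0296 over the other 3 libraries of the line, -0.0610 in Suv39h WT, and -0.0635 to -0.0557 over its other 3, and 6 bins were called. In chr14:3300001-4200000 (9 bins), a cluster of predicted genes, 3 bins had no score in 1 or more of the other libraries. Over the remaining 6 bins the values were -0.0454, -0.0480 to -0.0437, -0.0677, and -0.0664 to -0.0603 in the same order, and 3 bins were called. With quantile normalization the chromosome 14 difference over 9 bins shrank from -0.0207 to -0.00936. The longest falling run, chr13:75300001-76700000 (14 bins, with the elongation factor gene Ell2, the glutaredoxin gene Glrx, Fam81b and Mctp1), was -0.0152 in Setdb1 WT and -0.0302 in Suv39h WT, but Setdb1 WT + UNC lay at -0.0286, inside the Suv39h range of -0.0315 to -0.0277. Its Ell2 bin went from A to B, 0.00602 to -0.00506 (limma adjusted p = 0.219). The mean of a further run fell within A. The epidermal differentiation genes Crct1 and Lce1m and the Tdpoz genes, expressed in early embryos, shared chr3:93000001-93900000 (9 bins), at 0.0159 in Setdb1 WT and 0.00142 in Suv39h WT. Setdb1 WT + UNC, at 0.00300, again overlapped the Suv39h libraries, while Setdb1 KO and KO + UNC were at 0.0211 and 0.0198. The bin of Crct1 and Lce1m went from A to B, 0.00553 to -0.00990 (limma adjusted p = 0.114). So did those of Tdpoz4, 0.00540 to -0.00758 (0.210), and Tdpoz3, 0.0103 to -0.00649 (0.237).

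**Figure D3:**
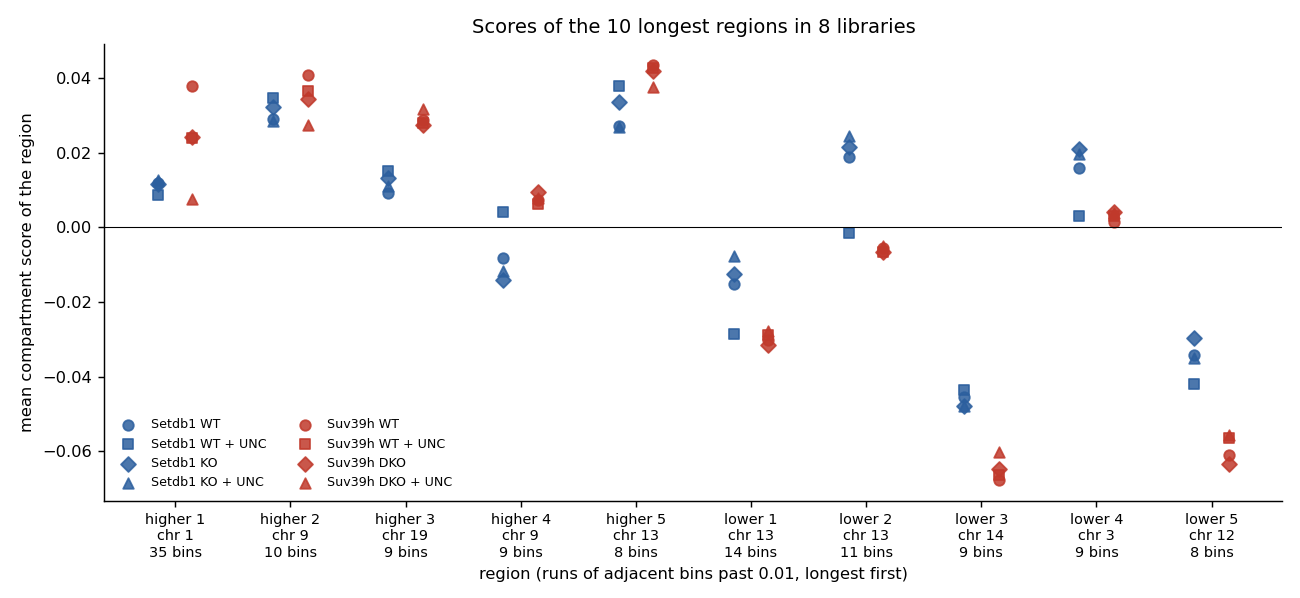
Mean compartment score of the 5 longest regions higher and the 5 longest lower in Suv39h WT, 1 point per library over the bins scored in all 8, with Setdb1 libraries in blue and Suv39h libraries in red. In 5 of the 10 regions (higher 3 and 4, lower 2, 3 and 5) the lines do not overlap, and in region higher 1 the Suv39h libraries spread from 0.00752 to 0.0379.

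Some of these bins lie in parts of the reference with gaps. The lowest limma adjusted p of all, 2.44e-05, was shared by chr12:87700001-87800000 and a bin of chr14:3300001-4200000. The chromosome 12 bin went from -0.0381 to -0.0798 and has 44057 known bases in the reference. Bins with gaps in the reference were 13 of the bins higher, 24 of the bins lower and 192 of all. The part of reference gaps in these falls was not tested.

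**Figure D4:**
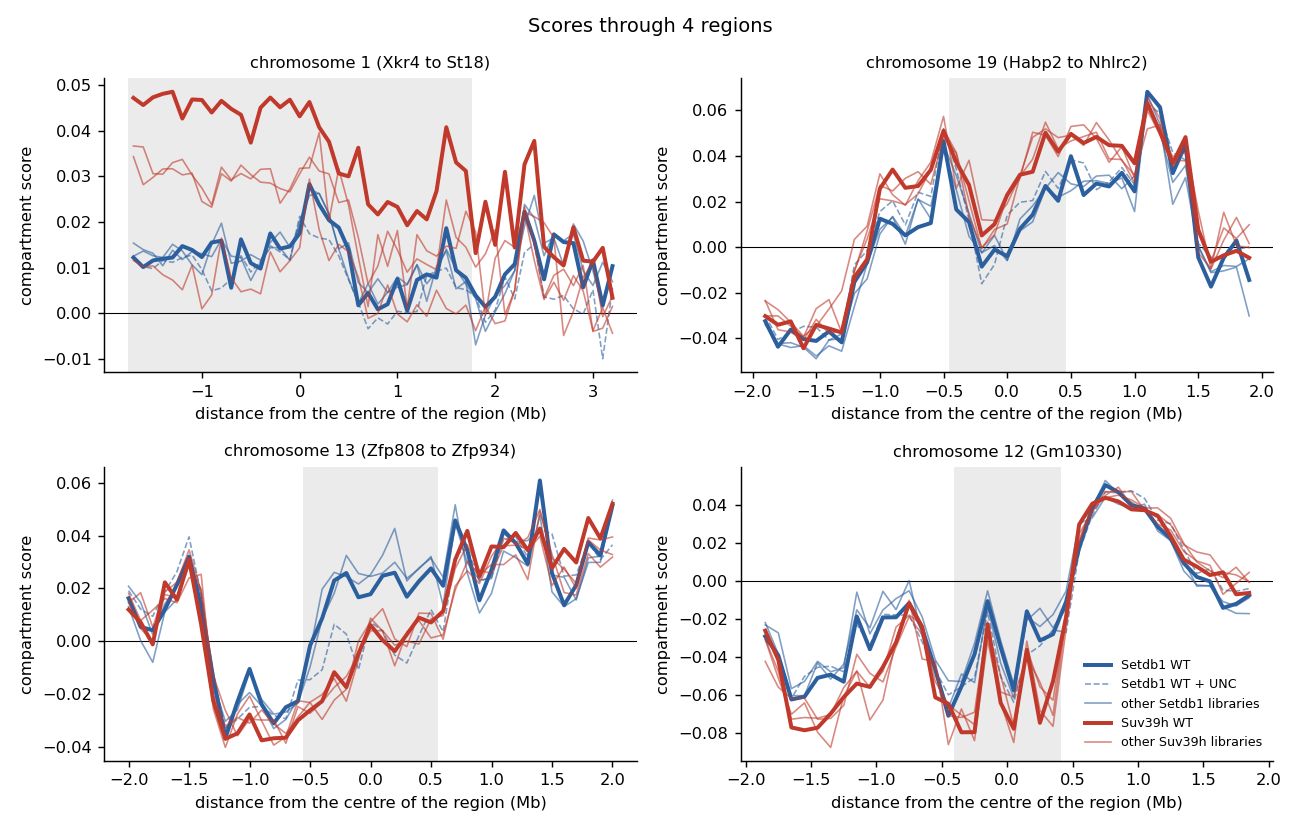
Compartment score by distance from the centre (Mb) through 4 regions (grey), with Suv39h libraries in red, Setdb1 libraries in blue, the WT libraries as thick lines and Setdb1 WT + UNC dashed. On chromosomes 19, 13 and 12 the red lines run together inside the region, whereas on chromosome 1 they fan out between means of 0.00752 and 0.0379.

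Gene lists differed widely in the share of their bins past the step, from none to 60.0%. No test compared lists with each other or with other genes. Genes were named mostly for a large difference in the WT pair. That pair is part of the line fit, so the adjusted p-values of single genes below are a description. Lists are given by distinct bins, since neighbours in a cluster share a score, and beside the 3.72% higher and 8.67% lower among all 10050 bins with a gene start. The line fit called 1.35% of gene-start bins higher and 3.43% lower, or 4.09% and 10.2% without Setdb1 WT + UNC. Replication-dependent histone genes, which package newly made DNA, were the most uneven: 56 of 67 genes lay in bins lower in Suv39h WT, but these were 6 of 10 bins, and none was higher. The median gene differed by -0.0169, against -0.00133 over all genes. The bin of Hist1h2ag scored 0.0275, 0.0127, 0.0348 and 0.0302 in Setdb1 WT, WT + UNC, KO and KO + UNC, and 0.00337, 0.0144, 0.0174 and 0.0195 in Suv39h WT, WT + UNC, DKO and DKO + UNC. Setdb1 WT + UNC fell among the Suv39h libraries. The line coefficient was below 0 in all 10 histone bins, yet limma called 0 of them (Hist1h2ag bin, adjusted p = 0.138), with 3 at an unadjusted p under 0.05. Of all gene-start bins, 7.78% were higher and 15.7% lower at that unadjusted p. It called 5 lower without Setdb1 WT + UNC.

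Zinc finger (Zfp) genes, many of which encode repressors of retrotransposons that recruit H3K9 methylation, had more bins lower than higher. Of 298 distinct bins, 53 were lower and 7 higher, and the median gene differed by -0.00357. The line fit called 14 bins lower and 1 higher, or 68 and 4 without Setdb1 WT + UNC, and its coefficient was below 0 in 221 of the 298 bins, against 58.8% of all bins with a gene start. Over the Zfp bins the median score was 0.0280, 0.0297 and 0.0303 in Setdb1 WT, KO and KO + UNC, 0.0229 in Setdb1 WT + UNC, and 0.0222, 0.0237, 0.0234 and 0.0224 in the 4 Suv39h libraries. Setdb1 WT + UNC thus sat in the Suv39h range, and the other Setdb1 libraries lay above it. Zfp317 went from 0.00711 to -0.0177 (limma adjusted p = 0.0611), Zfp973 from -0.0417 to -0.0646 (0.0232) and Zfp982 from 0.0390 to 0.0181 (0.151). In the other direction Zfp608 went from 0.0000885 to 0.0269 (limma adjusted p = 0.00672), with all 4 Suv39h libraries between 0.0159 and 0.0269.

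Receptor and immune families were mixed. Of the olfactory receptor genes, 36 of 333 bins were lower and 4 higher. The line fit called 12 lower (3.60%) and 2 higher, or 55 and 4 without Setdb1 WT + UNC. The bin of Olfr914 deepened from -0.00767 to -0.0345 (limma adjusted p = 0.0286). There Suv39h WT + UNC, at -0.0257, lay above Setdb1 WT + UNC, at -0.0262. Vomeronasal type 1 receptor genes, which detect pheromones, had 13 of 95 bins lower and 4 higher, with 5 called lower and 0 higher, or 23 and 1 without that library. Of the 19 MHC bins 1 was higher and 4 lower, with 1 called higher and 3 lower. The bin of H2-Q10 went from 0.0385 to 0.0622 (limma adjusted p = 0.0404), while that of H2-T3 went from 0.0468 to 0.0269 (0.00188), and H2-T3 was 0.0457 to 0.0513 in all Setdb1 libraries and 0.0248 to 0.0338 in all Suv39h libraries. The alpha-defensin bin of Defa22, a gut antimicrobial peptide gene, went from -0.0433 to -0.0649 (limma adjusted p = 0.00334). Keratin and keratin-associated genes were the reverse of most families, with 4 of 33 bins higher and 0 lower. The bin of Krtap16-1 rose by 0.0240, from -0.0208 to 0.00320, but the other Suv39h libraries were all in B, from -0.0107 to -0.000493, and limma called 0 keratin bins, with 9 of 33 higher and 0 lower at an unadjusted p under 0.05 (7.78% and 15.7% of all gene-start bins). It called 7 higher and 0 lower without Setdb1 WT + UNC, the Krtap16-1 bin among them (adjusted p = 0.0185).

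Of the 16 killer cell lectin-like receptor bins 3 were lower and 2 higher, with 1 called in each direction. The bin of Klrb1b, a natural killer cell gene, went from 0.0194 to -0.000329 (limma adjusted p = 0.0463). There Setdb1 WT + UNC, at 0.00398, lay inside the Suv39h range of -0.00243 to 0.00579. The bin of Klrb1 and Klrb1c went from 0.0191 to -0.00394 and was not called (0.0924). That of Klra4 and Klra6 rose by 0.0119 within B (0.0480). Cytochrome P450 genes, which oxidise drugs and steroids, had 8 of 73 bins lower and 3 higher, near the shares of all gene-start bins, with 6 called lower and 0 higher, or 22 and 3 without Setdb1 WT + UNC. The bin of Cyp2c37 went from -0.0176 to -0.0408 (limma adjusted p = 0.0552, or 0.000104 without Setdb1 WT + UNC), and Setdb1 WT + UNC, at -0.0363, lay among the Suv39h libraries. Clustered protocadherin genes, which give neurons distinct cell surfaces, had 2 of 10 bins lower. That of Pcdha1 went from 0.0233 to 0.00669 (limma adjusted p = 0.0603, or 0.000896 without Setdb1 WT + UNC). In this bin Setdb1 WT + UNC, at 0.0122, lay inside the Suv39h range of 0.00669 to 0.0129. Among the long neuronal genes, Ntm rose within B from -0.0312 to -0.0156 (limma adjusted p = 0.0136), and the Suv39h range of -0.0187 to -0.0146 lay above the Setdb1 range of -0.0312 to -0.0241. Major urinary protein and lipocalin genes had 0 of 24 bins past the step.

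**Figure D5:**
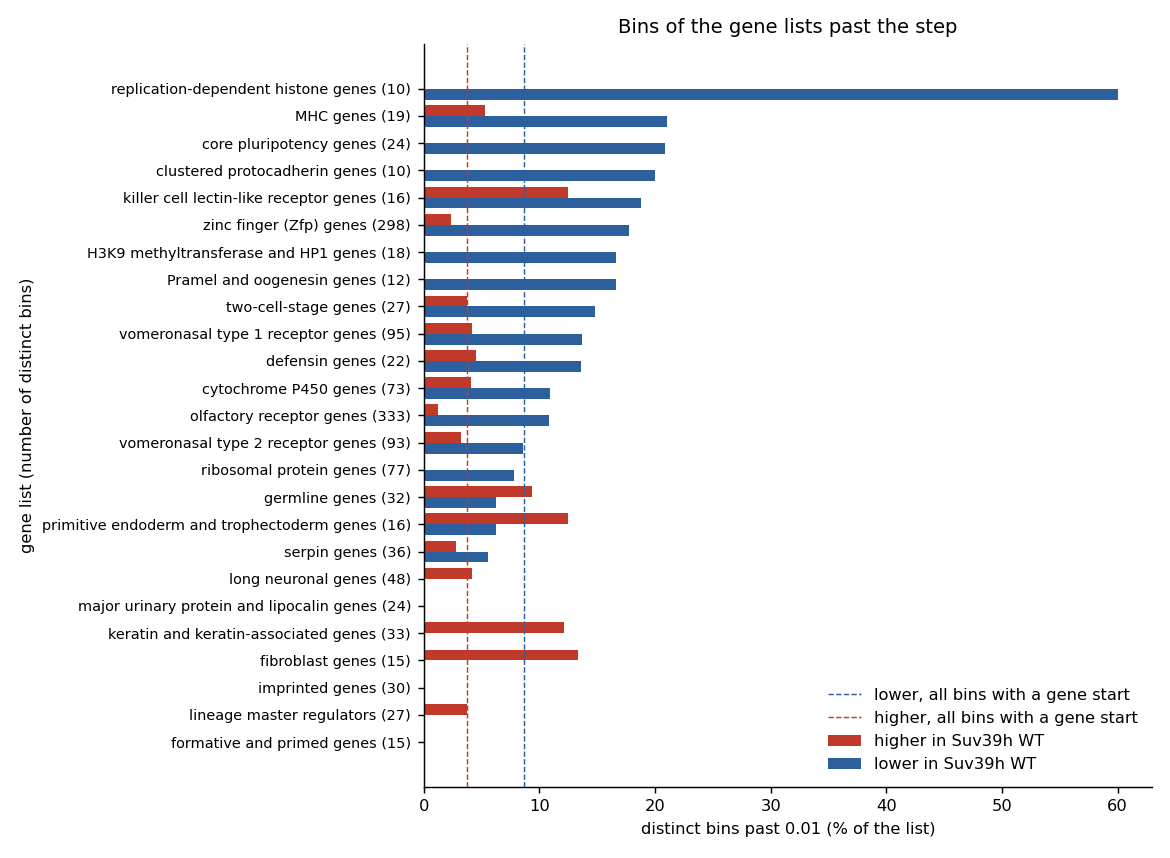
Share of the distinct bins of each gene list (%, number of bins in brackets) that were higher (red) or lower (blue) by 0.01 in Suv39h WT, for lists with at least 10 bins. Dashed lines mark the shares among all bins with a gene start, 3.72% higher and 8.67% lower. Histone genes reach 60.0% lower on 10 bins, and Zfp genes 17.8% lower on 298.

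Core pluripotency genes stayed in A in both lines. Of the 24 core pluripotency genes, 5 lay in bins lower (20.8% of their bins) and 0 in bins higher: Dppa4 (0.0218 in Setdb1 WT and 0.00584 in Suv39h WT), Nr5a2 (0.0344 and 0.0219), Tfcp2l1 (0.0442 and 0.0321), Tdgf1 (0.0482 and 0.0363) and Gbx2 (0.0496 and 0.0387). All kept the A sign. Limma called 0 of the 24 bins with or without Setdb1 WT + UNC, with 3 of 24 lower and 0 higher at an unadjusted p under 0.05, against 15.7% and 7.78% of all gene-start bins. Dppa4 in the other Setdb1 libraries ran from -0.000449 to 0.0158, so that its fall was within the spread of the line. Genes of the primitive endoderm and trophectoderm had 2 of 16 bins higher, those of Sox17 and Sox7, and 1 lower, that of Eomes (0.0184 to 0.00475, limma adjusted p = 0.100). No bin of the 37 imprinted or 39 Hox genes passed the step, nor did any of the 15 formative and primed genes, although limma called 1 of the formative and primed bins lower (2 without Setdb1 WT + UNC). In the germline list Tex15, needed in male meiosis and transposon silencing, went from 0.0278 to 0.00807 (limma adjusted p = 0.0344). Setdb1 KO and KO + UNC were at 0.0260 and 0.0248, but Setdb1 WT + UNC at 0.00945 was near the Suv39h libraries, 0.00602 to 0.00870. In the 2-cell-stage list, Duxbl1 deepened from -0.0621 to -0.0832 and separated the lines in all libraries (limma adjusted p = 0.000514), and Sp110 went from -0.0140 to -0.00326 (0.00520).

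The genes of the H3K9 methylation machinery itself lay in A in both lines. Of the 18 measured, 3 were in bins lower by the step and 0 in bins higher. Atf7ip2, a homologue of the SETDB1 partner ATF7IP, went from 0.0310 to 0.0113 (limma adjusted p = 0.0343), in a bin it shares with Rpl39l. The Suv39h WT value was apart from the other Suv39h libraries, 0.01995 to 0.0247. Morc3, an ATPase of H3K9-linked silencing, went from 0.0447 to 0.0341 (limma adjusted p = 0.0839), and Cbx5, which encodes HP1-alpha, from 0.0486 to 0.0381 (0.124). The bin of Setdb1 scored 0.0485 in Setdb1 WT and 0.0480 in Suv39h WT, Suv39h2 0.0101 and 0.00734, Ehmt2, which encodes G9a, 0.0566 and 0.0555, and Ehmt1, which encodes GLP, 0.0338 and 0.0330.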

How the data were processed

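Hi-C was done by the authors with DpnII in 8 groups of mESCs, and 1 score track per group was deposited. Per the labels and methods, reads were aligned to mm10 with the 4D Nucleome pipeline, alignments with mapping quality above 10 were kept, and Juicer Tools gave KR-normalised maps. The deposited values are compartment scores (first eigenvector, 100-kb bins, sex chromosomes not scored). The study made biological repeats of each group and lists their read numbers, but whether a track pools the repeats is not stated, so those numbers could not be tied to a track and are not used here. The files themselves hold no read counts. Per chromosome the scores average 0 and their squares sum to 0.855 to 0.996 in the 2 libraries. If each track is an eigenvector of unit length with its mean subtracted, which is not stated, the mean this implies was 0.00190 to 0.0101 in Suv39h WT and 0.00252 to 0.00911 in Setdb1 WT.

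Suv39h WT minus Setdb1 WT was computed per bin (Python 3.11.15, pandas 2.3.3), with no test for 1 library a side. Line was tested by limma (version 3.58.1, R 4.3.3) across the 8 libraries with UNC0642 as a covariate and Benjamini-Hochberg adjustment at 0.05. On simulated scores, 200 changed bins, this comparison recovered 89.5% of line differences of 0.02 with 11 false calls among 23972 bins, 0% of differences of 0.01, and made 0 calls with no change. The simulated noise was independent between bins, whereas differences in neighbouring bins of the data correlated at 0.476. The simulated rates therefore need not hold in the data, where a bin with a line coefficient of 0.00917 (Klra4) was called. Genes came from GENCODE vM21 on GRCm38, which shares mm10 coordinates, and were placed by their start. Named regions were the 5 longest runs in each direction, with up to 4 genes at their ends. Runs of equal length were ranked by the larger mean difference. The bins with the largest difference of each sign, up to 3 genes a direction per list, and the H3K9 genes were also named. The other genes of a region, and those of the other observations, were chosen after their values were seen. Members and lists were chosen with earlier results of these data known.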

Additional observations from a re-analysis of the deposited data

How the results depend on the processing

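Root-mean-square scaling, quantile normalization and removal of a linear trend left the maintained share at 94.5%. The counts of bins past 0.01 were close to the reported ones (1329 to 1369 higher, 1449 to 1510 lower). The maintained share was 93.3% and 94.9% with the implied mean added or subtracted in both libraries, 87.7% with a GC fit removed, 95.6% in 500-kb means and 97.7% for Setdb1 WT scores of at least 0.005 either way. Whether a mean was subtracted, and its sign, are not known. Adding it in Suv39h WT and subtracting it in Setdb1 WT gave 85.6% with 15998 bins higher and 184 lower, and the reverse gave 86.4% with 150 and 15795, so every direction is relative to the chromosome's mean. In 500-kb means 101 windows were higher and 129 lower, and a step of 0.02 left 114 and 173 bins.

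The count of limma calls depended on the libraries. Against 553 higher and 557 lower, the 4 WT libraries gave 90 and 129, a contrast of 2 libraries against 2 gave 31 and 56, and the 6 libraries other than the WT pair gave 15 and 52. Leaving out 1 library gave 68 to 1578 higher and 109 to 1771 lower: 1578 and 1771 without Setdb1 WT + UNC, and fewer calls than with all 8 without any other, namely 68 and 109 (Setdb1 KO), 83 and 134 (Setdb1 WT), 108 and 163 (Suv39h DKO), 136 and 203 (Setdb1 KO + UNC), 184 and 201 (Suv39h WT), 263 and 340 (Suv39h DKO + UNC), and 274 and 305 (Suv39h WT + UNC). The cause was not tested. Without Setdb1 WT + UNC, bins not overlapping rose to 3278 higher and 3205 lower. The other models and scalings gave 409 to 655 higher and 462 to 662 lower. The medians of 3 gene lists, all near 0, changed sign with the linear trend removed: germline 0.000152, ribosomal protein -0.000176 and serpin genes -0.000382. Named regions kept their direction in each scaling, centring and trend setting tried but not their size: with the implied mean subtracted in Suv39h WT and added in Setdb1 WT, the runs on chromosome 9 (10 bins) and chromosome 19 (9 bins) shrank to 0.00285 and 0.00241, and with the reverse they grew to 0.0210 and 0.0367. Lower bins kept more gene starts than higher bins in all 8 settings, by 0.529 to 0.760 a bin. The files hold no read counts, so no interval for depth is given. No paired analysis was possible because the groups hold 1 library each and the labels carry no replicate numbers.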

Other observations

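A small set of bins carried opposite compartments in the lines in all 8 libraries. In 50 bins all 4 Suv39h libraries were A and all 4 Setdb1 libraries B. In 35 bins the reverse held, compared with 705 and 621 bins that switched in the WT pair. These bins were chosen on the same 8 libraries that the line fit used, so their adjusted p-values are a description. The first set holds the prolactin receptor gene Prlr (-0.00975 in Setdb1 WT, a difference of 0.0163, limma adjusted p = 0.0169) and the testis gene Ccdc172 (difference 0.0187, adjusted p = 0.0194). The second holds the interferon-induced GTPase gene Gbp2 (difference -0.0145, limma adjusted p = 0.00351), the integrin beta-1 gene Itgb1 (-0.0126, 0.0194), the topoisomerase gene Top2b (-0.0146, 0.0474) and the stefin gene Stfa1 (-0.0278, 0.0103). Itgb1 and Top2b lay close to 0 on both sides, at 0.00869 and 0.0123 in Setdb1 WT and -0.00391 and -0.00234 in Suv39h WT. Gbp2 was at 0.0131 in Setdb1 WT but close to 0 in the Suv39h libraries, from -0.00140 to -0.000371.

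The runs of at least 5 bins were chosen on the WT pair, so only the other 6 libraries bear on them. There all 22 runs higher and all 28 lower kept their direction between the line means, with median differences of 0.0126 and -0.0144. The 3 other libraries of each line did not overlap in 14 of the 22 and 18 of the 28. Of single bins, 11.0% and 10.1% did not overlap in this way, but run means are less variable than single bins, so the shares are not a like comparison. The Skint family, genes of the skin and thymus that shape a gamma-delta T-cell subset, lay in a run of 6 bins on chromosome 4 (chr4:112000001-112600000) with a mean difference of -0.0348 and 3 bins called (lowest limma adjusted p = 4.23e-05). Over the 4 of these bins scored in all 8 libraries the WT pair differed by -0.0316 and the other 6 libraries by -0.0304, with 3 of the 4 called by the fit of those 6. On chromosome 17, chr17:30400001-31000000 (6 bins, with Btbd9, Glo1, Dnah8 and Glp1r) was higher by 0.0224 with all 6 bins called, and on chromosome 19 chr19:38400001-38900000 (5 bins, with Plce1 and Noc3l) was lower by 0.0194 with all 5 called. These calls include the WT pair. The other 6 libraries differed by 0.0169 and -0.0228 in these runs, and their fit called 2 and 3 bins. All these genes and runs were picked after their values were seen.

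On chromosome 16 the stefin gene Stfa1 lay in a bin lower in Suv39h WT, and the next run along the chromosome, with Stfa2, Stfa3 and Casr (chr16:36400001-36900000, 5 bins), was higher by 0.0160, with 1 bin called, or by 0.00768 over the other 6 libraries, with 0 called by their fit (lowest limma adjusted p = 0.124). In that run the lines overlapped, with Suv39h DKO + UNC at 0.0191 below Setdb1 KO + UNC at 0.01995. This pair of neighbours was also picked after its values were seen.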
